A study of Homo sapiens with 16 samples.

Results

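The genes described here act at the replication fork, where 3 small groups of proteins share the work behind and beside the polymerases. They are the 5 subunits of the clamp loader (RFC1 to RFC5), both large subunits of chromatin assembly factor 1 (CHAF1A and CHAF1B) and the fork protection genes CLSPN, TIMELESS and TIPIN. All probe sets whose only gene symbol in the platform annotation was one of these 10 were taken, which gave 24 of the 54675 probe sets on the array and 10 of the 19775 genes tested.

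The clamp loader opens the ring-shaped PCNA clamp and closes it around the DNA at a primer end, which lets the polymerases stay on their template. Chromatin assembly factor 1 binds PCNA and places newly made histones on the daughter strands. Claspin, the product of CLSPN, together with TIMELESS and TIPIN couples the helicase to the polymerases and passes a stalled-fork signal from the ATR kinase to CHEK1. Many genes of DNA replication are bound by E2F transcription factors, and RB, the retinoblastoma protein, holds E2F back until cells commit to S phase.

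The study used SAOS, an established human osteosarcoma line known to lack functional RB, and placed human RB and mouse SMYD2, a lysine methyltransferase, into it by transient transfection. There were 4 groups of 4 arrays: cells given RB plus SMYD2, cells given RB, cells given SMYD2, and control cells of the same line that were not transfected. The control cells carried no empty vector, so every difference from control also holds any effect of transfection itself, and the sources used here do not state what share of the cells took up DNA. The arrays of each group carry the numbers 1, 3, 4 and 5, no label says whether each was its own culture, and the p-values cover only the spread among them, which could be technical. The arrays read bulk RNA, so a smaller share of cells expressing a gene and less of its RNA per cell cannot be told apart.

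Array medians lay between 5.59 and 5.64 on the log2 scale, and any pair of arrays within a group had a correlation of 0.981 to 0.998. The SMYD2 array of replicate 1 stood apart in the log2 ratio of the 3' to the 5' probe sets of ACTB, a measure of RNA integrity. It was 3.53 there, against 0.54 to 2.46 on the other 15 arrays. The same ratio for GAPDH was 0.16 there, against -0.0063 to 0.10 on the others. Results that rest on that array are given with and without it, except correlations with genes outside the 10, which were not computed without it. The brighter RB1 probe set read 7.90, 7.90, 9.25 and 9.62 on the RB plus SMYD2 arrays, 7.40, 7.43, 8.10 and 7.87 on the RB arrays, 6.89, 6.59, 6.98 and 6.92 on the SMYD2 arrays and 6.24, 6.49, 6.27 and 6.93 on the control arrays. The arrays given both plasmids thus read at or above 7.90 for RB1, against 7.40 to 8.10 with RB alone, which moves with every comparison of those groups and whose part in the results was not tested. The 8 osteoblast lineage markers averaged between 5.72 for SPP1 and 13.67 for COL1A1 with RB plus SMYD2, and between 5.31 and 13.53 for the same genes in control, and the mean log2 signal of the 8 ran from 11.13 to 11.58 on the RB plus SMYD2 arrays, 11.22 to 11.59 on the RB arrays, 10.74 to 11.23 on the SMYD2 arrays and 10.78 to 11.32 on the control arrays. The mean of 11 markers of other cells stayed between 5.80 and 6.002 on all arrays, with the epithelial markers EPCAM and KRT18 as its bright members (9.42 and 9.60 with RB plus SMYD2, 9.45 and 9.78 in control). In the comparison of RB plus SMYD2 with control, 1 of the 8 osteoblast markers, SPARC, rose, against 3% of all genes, and 5 of the 8 rose with the replicate number as a block, against 6.17% of all genes. With RB against control SPARC and SPP1 rose (0.81 and 0.83), against 1.24% of all genes. With the replicate block COL1A2 rose too (0.94), which made 3 of the 8, against 3.61% of all genes. In both comparisons 0 of the 11 markers of other cells passed in limma with or without the block.

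The promoters of 4 genes are shown: RFC3, CLSPN and TIPIN because they hold the full word that E2F proteins are known to bind, and CHAF1A because its difference with RB against control was the largest of the 10. RefSeq lists 11 promoter windows for the 10 genes on GRCh38.p14, each of 300 bases from 250 before to 50 after the start, with 2 windows for TIPIN. The full E2F word was searched as TTTCCCGC, TTTCGCGC, TTTGCCGC or TTTGGCGC on both strands, and it occurred in 3 of the 11 windows, those of RFC3, CLSPN and TIPIN, against 3.31% of all 35116 windows. The same 4 words without their first T, looked for after the longer word had been counted and contained in it, occurred in 10 of the 11 windows and in every one of the 10 genes, against 13% of all windows. Capitals below mark the shorter E2F form and the CCAAT box (CCAAT, either strand), the letters that the NF-Y factor binds, and adjoining marks run together.
RFC3 (chr13:33817899-33818198, plus strand): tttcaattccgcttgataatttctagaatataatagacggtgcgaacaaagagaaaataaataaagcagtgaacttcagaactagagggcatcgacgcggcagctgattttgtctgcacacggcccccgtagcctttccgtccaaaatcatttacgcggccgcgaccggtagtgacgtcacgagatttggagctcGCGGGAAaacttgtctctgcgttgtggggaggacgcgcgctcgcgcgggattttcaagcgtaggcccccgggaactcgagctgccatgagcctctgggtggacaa
CHAF1A (chr19:4402390-4402689, plus strand): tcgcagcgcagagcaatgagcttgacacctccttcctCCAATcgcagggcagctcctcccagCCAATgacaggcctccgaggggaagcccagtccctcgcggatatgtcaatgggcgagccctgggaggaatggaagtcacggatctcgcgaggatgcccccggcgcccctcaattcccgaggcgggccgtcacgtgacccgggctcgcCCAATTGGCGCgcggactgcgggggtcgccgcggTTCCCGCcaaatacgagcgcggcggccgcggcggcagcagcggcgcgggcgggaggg
CLSPN (chr1:35769929-35770228, minus strand): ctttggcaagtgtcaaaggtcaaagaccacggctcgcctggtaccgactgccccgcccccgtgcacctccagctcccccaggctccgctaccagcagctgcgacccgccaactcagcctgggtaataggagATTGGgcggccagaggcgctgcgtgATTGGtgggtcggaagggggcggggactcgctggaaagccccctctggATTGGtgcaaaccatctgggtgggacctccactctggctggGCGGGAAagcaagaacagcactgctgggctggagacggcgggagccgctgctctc
TIPIN (chr15:66356636-66356935, minus strand): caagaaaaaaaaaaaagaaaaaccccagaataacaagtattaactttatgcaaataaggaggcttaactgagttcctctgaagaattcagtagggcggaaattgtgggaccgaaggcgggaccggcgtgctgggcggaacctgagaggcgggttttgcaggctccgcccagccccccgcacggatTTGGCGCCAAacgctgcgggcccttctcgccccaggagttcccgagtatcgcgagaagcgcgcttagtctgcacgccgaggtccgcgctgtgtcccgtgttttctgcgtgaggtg

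In RFC3 the reverse of the full E2F word lay with its first base at -55 from the start, and in CLSPN at -5. CHAF1A had the short form at -37 and at -7, the first of them overlapping the CCAAT box at -41, and 4 CCAAT matches in all. The TIPIN window shown, which is the inner of its 2, held the full word on both strands, at -66 and -62, in 1 overlapping palindrome, while its outer window at chr15:66386668-66386967 held neither form. CCAAT occurred in 6 of the 11 windows against 34.6% of all windows, and the cell cycle homology words TTTGAA and TTCGAA occurred in 0 of the 11 against 16.4%. These matches describe letters in a window and were not set against binding data. The shares over all windows were not matched for base composition.

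With RB plus SMYD2 set against control, 9 of the 10 genes fell at an adjusted p under 0.05 in limma, against 4.2% of all genes tested that fell by that rule. Their differences ran from -1.04 for CLSPN to -0.39 for RFC1, with a median of -0.76 on the log2 scale, while the median of all genes was 0.02. RFC1, the large subunit of the clamp loader, was the gene that did not pass. In each of the 10 genes all 4 RB plus SMYD2 arrays read below all 4 control arrays, and 7.79% of all genes were separated that way. The mean signal of the 10 genes was 8.92 ± 0.10 with RB plus SMYD2, 9.18 ± 0.04 with RB, 9.58 ± 0.22 with SMYD2 and 9.66 ± 0.06 in control (SD, n = 4 each), and the RB plus SMYD2 arrays (8.85 to 9.07), the RB arrays (9.13 to 9.22) and the arrays without RB (9.26 to 9.74) did not overlap.

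**Figure D1:**
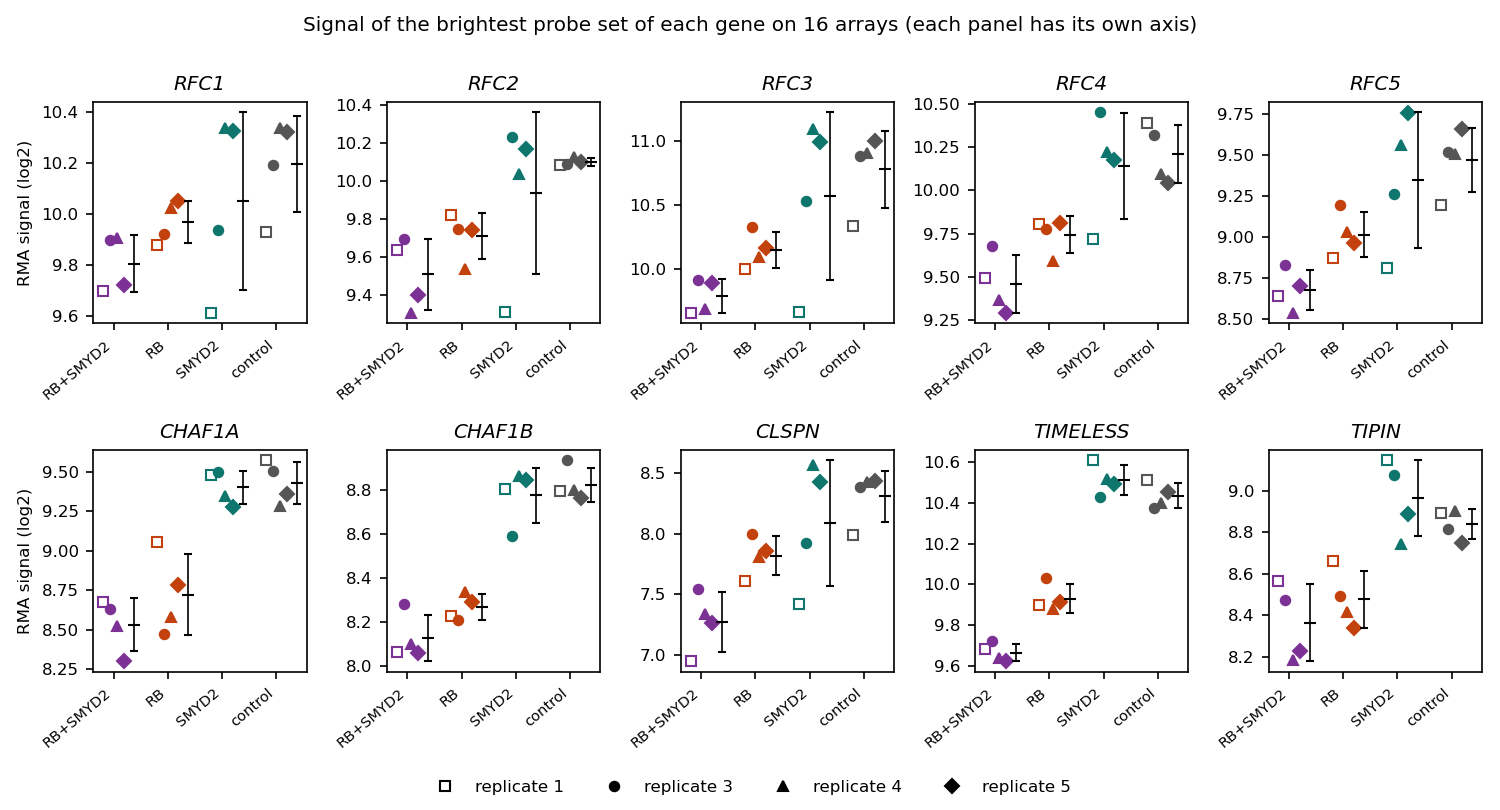
RMA signal (log2, vertical axis) of the brightest probe set of each of the 10 genes on the 16 arrays, by group (horizontal axis), with the group mean and SD as a black mark beside each set of 4 arrays. Open squares are the arrays of replicate 1; the SMYD2 square sits low for RFC1 to RFC5 and CLSPN and among the other SMYD2 arrays or above them for CHAF1A, CHAF1B, TIMELESS and TIPIN.

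The small subunits form, with RFC1, the ring of ATPases that drives loading, and they are shared with the alternative loaders. RFC4 read 9.49, 9.68, 9.37 and 9.29 on the RB plus SMYD2 arrays, 9.80, 9.77, 9.59 and 9.81 on the RB arrays, 9.72, 10.45, 10.22 and 10.18 on the SMYD2 arrays and 10.39, 10.32, 10.09 and 10.04 on the control arrays. All 4 arrays with RB plus SMYD2 were below all of SMYD2 and all of control. RFC4 differed by -0.76 ± 0.13 (SE, n = 4 each) from control, which is 1.69-fold lower (adjusted p = 0.00149, limma), and by -0.69 ± 0.13 from SMYD2 (adjusted p = 0.00334, limma). With RB alone RFC4 was -0.47 ± 0.13 from control without overlap, which did not pass (adjusted p = 0.0739, limma) but did with the replicate number as a block (adjusted p = 0.0208, limma).

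RFC3 read 9.66, 9.92, 9.68 and 9.89 on the RB plus SMYD2 arrays, 10.0005, 10.33, 10.10 and 10.17 on the RB arrays, 9.66, 10.53, 11.10 and 10.996 on the SMYD2 arrays and 10.33, 10.88, 10.91 and 10.9997 on the control arrays. The SMYD2 array of replicate 1 lay at the level of the RB plus SMYD2 arrays, so that those groups overlapped, while each RB plus SMYD2 array was below each RB array and each RB array below each control array. RFC3 fell by 1.00 ± 0.23 with RB plus SMYD2 against control (1.99-fold lower, adjusted p = 0.0115, limma). Its fall with RB plus SMYD2 against SMYD2, -0.78 ± 0.23, was close to the threshold (adjusted p = 0.047, limma), and without the SMYD2 array of replicate 1 the difference was -1.09 (adjusted p = 0.000183, limma). The call was lost when any array other than that one and control replicate 1 was left out (14 of 16 cases, adjusted p 0.0547 to 0.138, limma, with differences of -0.83 to -0.61). With RB against control the difference was -0.63 ± 0.23 (adjusted p = 0.191; 0.026 with the replicate block, limma).

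RFC5 read 8.64, 8.83, 8.53 and 8.70 on the RB plus SMYD2 arrays, 8.87, 9.19, 9.03 and 8.96 on the RB arrays, 8.81, 9.26, 9.56 and 9.76 on the SMYD2 arrays and 9.19, 9.52, 9.51 and 9.66 on the control arrays. It was 1.73-fold lower with RB plus SMYD2 than in control (-0.79 ± 0.16, adjusted p = 0.00414, limma) and 1.59-fold lower than with SMYD2 (-0.67 ± 0.16, adjusted p = 0.0137, limma; 0.0551 without RB plus SMYD2 replicate 4). The RB and control arrays overlapped by 1 array each, at 9.19 on both sides, and the difference of -0.46 ± 0.16 did not pass (adjusted p = 0.168; 0.0337 with the replicate block, limma). RFC2 read 9.64, 9.69, 9.31 and 9.40 on the RB plus SMYD2 arrays, 9.82, 9.75, 9.54 and 9.74 on the RB arrays, 9.31, 10.23, 10.04 and 10.17 on the SMYD2 arrays and 10.09, 10.09, 10.13 and 10.10 on the control arrays. The 4 control arrays lay between 10.09 and 10.13, above all arrays with RB, and SMYD2 replicate 1 was again the low array of its group. RFC2 fell by 0.59 ± 0.15 with RB plus SMYD2 against control (adjusted p = 0.0254, limma), a call lost without RB plus SMYD2 replicate 4 or 5 or control replicate 3, 4 or 5 (adjusted p 0.0530 to 0.0983, limma), and differed by -0.39 ± 0.15 with RB (adjusted p = 0.253, limma).

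RFC1 read 9.70, 9.90, 9.90 and 9.72 on the RB plus SMYD2 arrays, 9.88, 9.92, 10.02 and 10.05 on the RB arrays, 9.61, 9.94, 10.33 and 10.32 on the SMYD2 arrays and 9.93, 10.19, 10.34 and 10.32 on the control arrays. Its differences were the smallest of the 10 against control, -0.39 ± 0.14 with RB plus SMYD2 and -0.22 ± 0.14 with RB (adjusted p = 0.111 and 0.554, limma). With the replicate block the first of these passed (adjusted p = 0.0121, limma). There was no overlap between its RB plus SMYD2 arrays, at 9.90 or below, and its control arrays, at 9.93 or above.

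In chromatin assembly factor 1, CHAF1A is the subunit that binds PCNA and CHAF1B the partner that helps hold the histones. CHAF1A read 8.67, 8.63, 8.52 and 8.30 on the RB plus SMYD2 arrays, 9.05, 8.47, 8.58 and 8.78 on the RB arrays, 9.48, 9.50, 9.35 and 9.28 on the SMYD2 arrays and 9.57, 9.51, 9.28 and 9.36 on the control arrays. No array with RB reached any array without it. CHAF1A was 1.64-fold lower with RB than in control (-0.71 ± 0.12, adjusted p = 0.00323, limma), 1.87-fold lower with RB plus SMYD2 than in control (-0.90 ± 0.12, adjusted p = 0.000113, limma) and 1.83-fold lower than with SMYD2 (-0.87 ± 0.12, adjusted p = 0.000181, limma). The difference with RB against control was the largest of the 10 genes.

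CHAF1B read 8.06, 8.28, 8.10 and 8.06 on the RB plus SMYD2 arrays, 8.22, 8.21, 8.34 and 8.29 on the RB arrays, 8.80, 8.59, 8.86 and 8.84 on the SMYD2 arrays and 8.79, 8.93, 8.80 and 8.76 on the control arrays. The gap between arrays with and without RB was also complete here. It fell by 0.56 ± 0.08 with RB against control (adjusted p = 0.00143, limma), by 0.70 ± 0.08 with RB plus SMYD2 against control (adjusted p = 4.1e-05, limma) and by 0.65 ± 0.08 with RB plus SMYD2 against SMYD2 (adjusted p = 9.14e-05, limma). Both genes of the complex kept these calls in each of the 27 alternative settings.

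Among the fork protection genes, TIMELESS had the smallest spread. TIMELESS read 9.68, 9.72, 9.64 and 9.62 on the RB plus SMYD2 arrays, 9.90, 10.03, 9.88 and 9.91 on the RB arrays, 10.61, 10.43, 10.52 and 10.49 on the SMYD2 arrays and 10.51, 10.38, 10.40 and 10.46 on the control arrays. The 3 levels were separate: RB plus SMYD2 was lowest, RB lay above it, and SMYD2 and control lay together above both. It fell by 0.51 ± 0.07 with RB against control (adjusted p = 0.000634, limma), by 0.77 ± 0.07 with RB plus SMYD2 against control (adjusted p = 2.51e-06, limma) and by 0.85 ± 0.07 with RB plus SMYD2 against SMYD2 (adjusted p = 1.52e-06, limma). Averaged over both of its probe sets, the dimmer of which read near 5, the difference with RB was -0.27 and did not pass (adjusted p = 0.119, limma).

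TIPIN, the partner that stabilises TIMELESS, read 8.57, 8.47, 8.19 and 8.23 on the RB plus SMYD2 arrays, 8.66, 8.49, 8.42 and 8.34 on the RB arrays, 9.15, 9.07, 8.74 and 8.89 on the SMYD2 arrays and 8.89, 8.81, 8.90 and 8.75 on the control arrays. Every array with RB was below every array without it. TIPIN fell by 0.47 ± 0.11 with RB plus SMYD2 against control (adjusted p = 0.0112, limma) and by 0.60 ± 0.11 against SMYD2 (adjusted p = 0.00203, limma). With RB against control the difference was -0.36 ± 0.11 (adjusted p = 0.098; 0.00968 with the replicate block, limma). The call of RB plus SMYD2 against control was lost without RB plus SMYD2 replicate 4 (adjusted p = 0.0538, limma).

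CLSPN read 6.95, 7.55, 7.34 and 7.26 on the RB plus SMYD2 arrays, 7.61, 8.0, 7.81 and 7.86 on the RB arrays, 7.42, 7.93, 8.57 and 8.43 on the SMYD2 arrays and 7.99, 8.39, 8.42 and 8.43 on the control arrays. The RB plus SMYD2 arrays were below all RB arrays and all control arrays, and the SMYD2 array of replicate 1 fell among them. CLSPN had the largest fall of the 10 with RB plus SMYD2 against control, 2.05-fold (-1.04 ± 0.20, adjusted p = 0.00305, limma), and was -0.81 ± 0.20 against SMYD2 (adjusted p = 0.0174, limma), a call lost without RB plus SMYD2 replicate 1, SMYD2 replicate 4 or SMYD2 replicate 5 (adjusted p 0.0592 to 0.0639, limma). With RB it differed from control by -0.49 ± 0.20 (adjusted p = 0.267; 0.0337 with the replicate block, limma), and the highest RB array was just above the lowest control array.

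Counted over the 10 genes, RB against control gave 3 falls, those of CHAF1A, CHAF1B and TIMELESS, against 1.71% of all genes, and 0 rises. With the replicate number as a block the count was 8, all but RFC1 and RFC2, against 3.47% of all genes. Without the SMYD2 array of replicate 1, which is in neither group but enters the shared estimate of spread, it was 7, against 2.71% of all genes. The RB arrays were all below the control arrays in 7 of the 10 genes, against 5.2% of all genes, the overlapping genes being RFC1, RFC5 and CLSPN. The median difference was -0.48, with a range of -0.71 to -0.22, against 0.01 over all genes.

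RB plus SMYD2 against SMYD2 gave 8 falls, all but RFC1 and RFC2, against 4.25% of all genes, with a median of -0.68. It separated the arrays fully in RFC4, CHAF1A, CHAF1B, TIMELESS and TIPIN, which is 5 of the 10 against 6.61% of all genes. Without the SMYD2 array of replicate 1 all 10 fell, RFC1 included (-0.39, adjusted p = 0.0374, limma), against 4.82% of all genes. RB against SMYD2 gave 4 falls, those of CHAF1A, CHAF1B, TIMELESS and TIPIN, against 1.86% of all genes, and 8 against 2.37% of all genes without that array. With the replicate block RFC4 passed too (-0.40, adjusted p = 0.042 with the block and 0.125 without it, limma), which made 5 against 4.42% of all genes. The TIPIN call in that comparison was lost without RB replicate 4, RB replicate 5 or SMYD2 replicate 3 (adjusted p 0.0563 to 0.0742, limma). It was also lost with only the RB and SMYD2 groups in the fit (adjusted p = 0.110, limma).

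**Figure D2:**
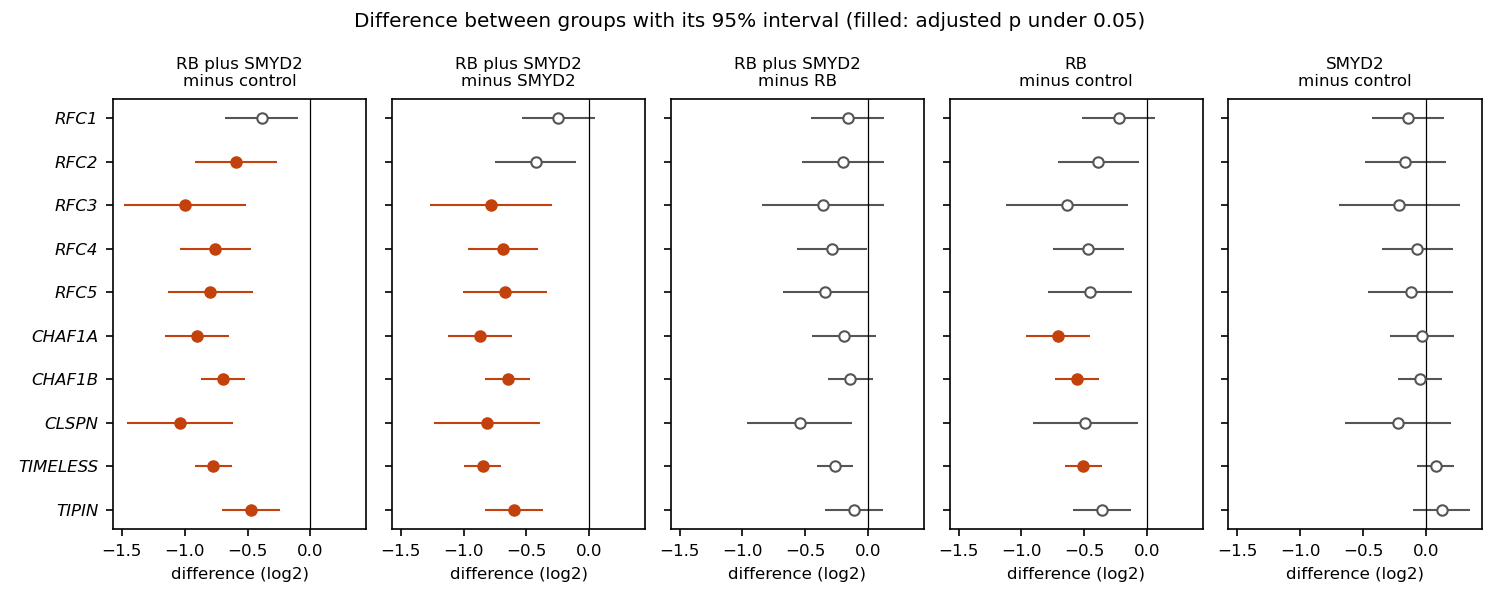
Difference between groups (log2, horizontal axis) for each of the 10 genes (rows) in 5 comparisons, with 95% intervals from the limma fit; filled points have an adjusted p under 0.05 over all genes. Of the 10 points, 9 are filled for RB plus SMYD2 against control, 8 for RB plus SMYD2 against SMYD2, 3 for RB against control and 0 in the other 2 panels.

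SMYD2 against control moved 0 of the 10 genes past the threshold, and 0% of all genes passed in limma. At an unadjusted p under 0.05 it was also 0 of the 10, with 2.89% of all genes. The differences lay between -0.22 for CLSPN and 0.12 for TIPIN, and 8 of the 10 were below 0. Without the SMYD2 array of replicate 1 their median was 0.04 instead of -0.10, and RFC1 to RFC5 were at or above 0. For TIMELESS, the gene with the smallest error, the 95% interval of SMYD2 minus control ran from -0.07 to 0.22, and for CLSPN from -0.64 to 0.20, so a fall of up to 0.64 in CLSPN lies within the error.

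RB plus SMYD2 against RB, the comparison that asks what SMYD2 adds to RB, likewise gave 0 calls among the 10, and 0% of all genes passed in limma. All 10 differences were below 0, with a median of -0.23 and a range of -0.55 for CLSPN to -0.11 for TIPIN, where 48.1% of all genes were below 0. In 8 of the 10 genes the RB plus SMYD2 array was below the RB array of the same number in 4 of 4 pairs, and in CHAF1A and CHAF1B in 3 of 4. The share of all genes with such pairs was not computed. At replicate 5 the deviations of these arrays from their group means correlated less by number (0.145) than with another number (0.375). RFC4, RFC5, CLSPN and TIMELESS had an unadjusted p under 0.05, which is 4 of the 10 against 1.97% of all genes in that direction. The arrays did not overlap in RFC3, RFC5, CLSPN and TIMELESS, again 4 of the 10, against 1.98% of all genes. TIMELESS was -0.27 ± 0.07 (adjusted p = 0.685, limma) and CLSPN -0.55 ± 0.20 (adjusted p = 1.00, limma). The higher RB1 signal of the doubly transfected arrays stands beside this comparison, and its part in it was not tested.

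The difference with RB can be read in separate sets of arrays. Without SMYD2 it is RB against control, and with SMYD2 it is RB plus SMYD2 against SMYD2. The control cells were not transfected, so the first also holds any effect of transfection, while the second compares transfected groups. The gap between them, with SMYD2 minus without, holds that effect too. CHAF1A differed by -0.87 ± 0.12 with SMYD2 and -0.71 ± 0.12 without it, CLSPN by -0.81 ± 0.20 and -0.49 ± 0.20, RFC4 by -0.69 ± 0.13 and -0.47 ± 0.13, and RFC1 by -0.25 ± 0.14 and -0.22 ± 0.14. In each of the 10 genes the difference was further below 0 with SMYD2 than without it. The gap was below 0 in 52% of all genes, whatever the sign of their differences. The test of this gap, the interaction, gave 0 calls among the 10, and 0% of all genes passed in limma. At an unadjusted p under 0.05 it was 1 of the 10, TIMELESS, against 1.42% of all genes in that direction (-0.34 ± 0.10, 95% interval -0.55 to -0.14, unadjusted p = 0.0026, adjusted p = 1.00, limma). Without the SMYD2 array of replicate 1 the interaction of RFC3 was -0.46 ± 0.21, of RFC4 -0.36 ± 0.15 and of RFC5 -0.40 ± 0.17. That of CLSPN was then -0.54 ± 0.22 and of TIMELESS -0.31 ± 0.09. Only these genes of the 10 had an unadjusted p under 0.05 there (0.00316 to 0.0435, limma), still with an adjusted p near 1. The share of all genes under 0.05 without that array was not computed. Over the 10 genes, which are not independent points, both differences correlated at 0.85, and at 0.72 without that array, against 0.81 over all 19775 genes.

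**Figure D3:**
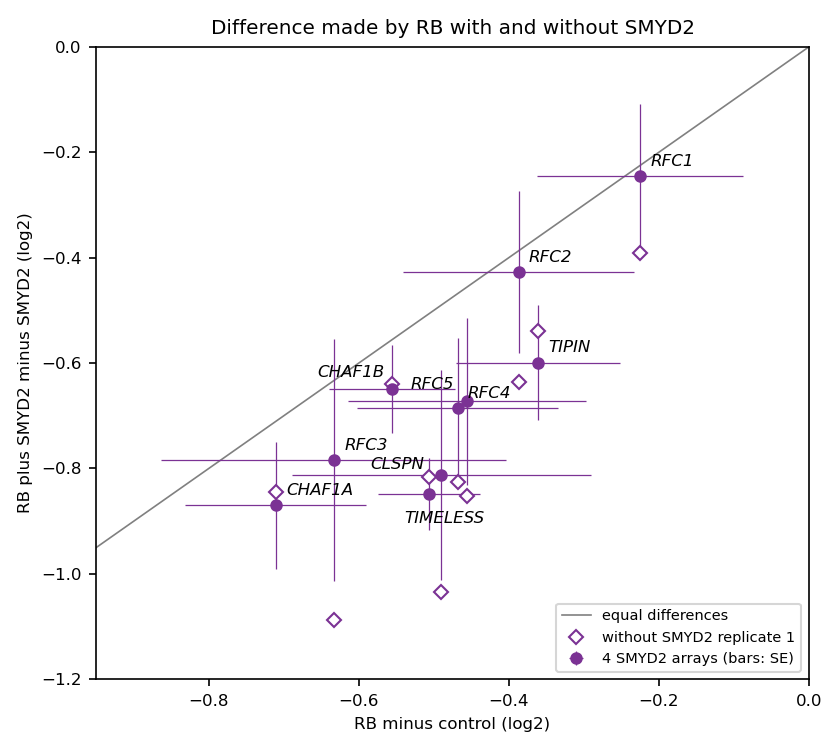
Difference with RB when SMYD2 was present (RB plus SMYD2 minus SMYD2, vertical axis, log2) against RB minus control (horizontal axis, log2) for the 10 genes, with SE bars. The line marks equal differences. The control was not transfected, so the horizontal axis also holds any effect of transfection. All 10 filled points lie below the line; open diamonds, without the SMYD2 array of replicate 1, are lower for RFC1 to RFC5 and CLSPN and slightly higher for the other 4 genes.

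The SMYD2 array of replicate 1 split the 10 genes. Against the mean of the other 3 SMYD2 arrays it read -1.22 for RFC3, -0.88 for CLSPN, -0.83 for RFC2, -0.72 for RFC5, -0.59 for RFC1 and -0.56 for RFC4. For CHAF1A, CHAF1B, TIMELESS and TIPIN it read 0.10, 0.04, 0.13 and 0.24. Thus 6 of the 10 were lower by over 0.5 there, where 7.38% of all genes were. The control array of replicate 1, with the next highest ACTB ratio of 2.46, was -0.60 for RFC3, -0.43 for CLSPN, -0.37 for RFC5 and -0.35 for RFC1, but 0.24 for RFC4 and -0.02 for RFC2. In the same order of genes, the RB array of replicate 1 was -0.20, -0.28, -0.19, -0.12, 0.08 and 0.15. That of RB plus SMYD2 was -0.17, -0.44, -0.05, -0.14, 0.05 and 0.17. Within groups, the 15 pairs among RFC1 to RFC5 and CLSPN had a median correlation of 0.68 over the 16 arrays. It was 0.08 over the 15 arrays without SMYD2 replicate 1. Without that array the 6 pairs among RFC1, RFC3, RFC5 and CLSPN still had correlations of 0.69 to 0.90 and RFC2 with RFC4 0.64. The 8 pairs of one of those 4 genes with RFC2 or RFC4 lay between -0.54 and 0.08. These groupings of the genes were chosen after their values were seen.

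**Figure D4:**
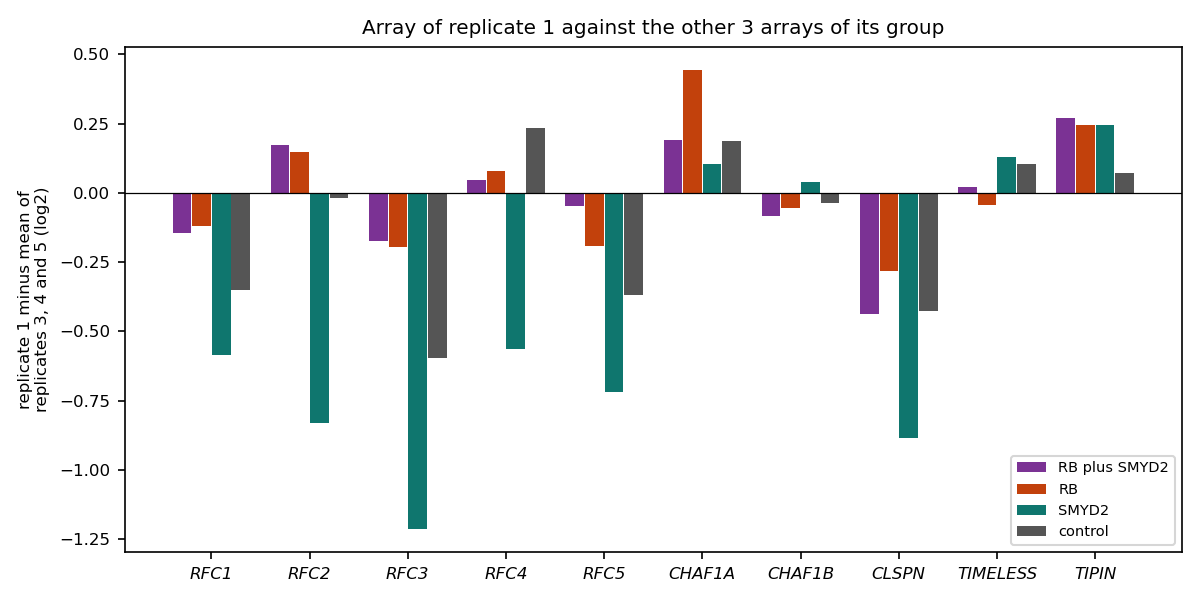
Signal on the array of replicate 1 minus the mean of replicates 3, 4 and 5 of the same group (log2, vertical axis) for each gene, with 1 bar per group. The SMYD2 bars reach -1.22 for RFC3 and are below -0.5 for RFC1 to RFC5 and CLSPN; they are above 0 for the other 4 genes.

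The further probe sets of a gene differed in brightness and in what they showed. In the fit over all probe sets, 12 of the 24 fell with RB plus SMYD2 against control, against 2.12% of all probe sets, 9 of them the brightest of their gene and 3 others. The other 3 were the second set of RFC2 (-0.63 ± 0.15) and a pair of further CHAF1A sets (-0.76 ± 0.08 and -0.87 ± 0.09). The first of those CHAF1A sets, which read 9.05 to 9.28 without RB and 8.20 to 8.71 with it, is of the type whose probes can also match other transcripts, as is the brightest set of RFC1. The second RFC3 set read 7.87, 8.51, 8.49 and 8.56 on the RB plus SMYD2 arrays, 8.40, 8.87, 9.21 and 8.84 on the RB arrays, 6.19, 8.43, 10.19 and 9.96 on the SMYD2 arrays and 8.20, 9.73, 9.62 and 10.02 on the control arrays. Its difference of -1.04 ± 0.62 matched the brightest set in size but not in error, and its lowest value was the SMYD2 array of replicate 1. The dimmest sets of RFC1, RFC3, CHAF1A and TIMELESS averaged 4.89, 4.63, 4.19 and 4.98 and differed by -0.12 to 0.08, and 1 RFC5 set was scattered in every group (8.86, 8.37, 7.15 and 8.07 with RB plus SMYD2, 8.72, 8.55, 7.77 and 7.86 in control). A further RFC5 set averaged 7.19 ± 0.16 with RB plus SMYD2 and 7.48 ± 0.23 with RB (SD, n = 4 each). It averaged 7.52 ± 0.95 with SMYD2 and 7.89 ± 0.44 in control, and was lowest on the SMYD2 array of replicate 1 (6.24). The second RFC1 set differed by -0.39 ± 0.13 with RB plus SMYD2 against control, and neither of these sets passed. CLSPN had 3 dimmer sets, with differences of -0.27, -0.37 and -0.69, none of which passed. With each gene read as the mean of its probe sets, RFC3 and RFC5 passed neither against control nor against SMYD2 (-0.70 and -0.54 against control, adjusted p = 0.202 and 0.0667; -0.39 and -0.36 against SMYD2, adjusted p = 0.541 and 0.246, limma).

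Among the sliding clamps and other clamp loaders, 5 of 11 fell with RB plus SMYD2 against control and 0 rose, and 6 fell with the replicate block, with a median of -0.29. PCNA, the clamp that RFC loads, fell by 0.67 ± 0.10 (adjusted p = 0.000229, limma). CHTF18 and DSCC1, which form a loader with the small RFC subunits in sister chromatid cohesion, were -0.67 ± 0.09 and -0.74 ± 0.18 (adjusted p = 6.95e-05 and 0.0154, limma), and ATAD5, whose complex unloads PCNA, was -0.56 ± 0.15 (adjusted p = 0.0311, limma). RAD17, the large subunit of the loader of the checkpoint clamp, was 0.10 ± 0.09 and did not pass. With RB against control 2 of the 11 fell, and 4 with the replicate block. Against SMYD2, RB plus SMYD2 gave 3 falls, and 5 with the block, and RB gave 2, and 3 with the block.

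Of 17 other histone chaperones measured, 5 fell with RB plus SMYD2 against control and 0 rose, and 8 fell with the replicate block; their median was -0.20. ASF1B, which hands histones to chromatin assembly factor 1, was -0.90 ± 0.11 (adjusted p = 5.18e-05, limma), NASP, a carrier of soluble histones, -0.58 ± 0.07 (adjusted p = 5.38e-05, limma), SSRP1, a subunit of FACT, -0.59 ± 0.16 (adjusted p = 0.0297, limma) and TONSL, a reader of new histones behind the fork, -0.44 ± 0.10 (adjusted p = 0.00988, limma). RBBP4, the third subunit of chromatin assembly factor 1, was -0.28 ± 0.27 and did not pass (adjusted p = 0.669, limma). With RB against control 3 of the 17 fell, and 4 with the block, and against SMYD2, RB plus SMYD2 gave 4 falls, and 7 with the block. RB against SMYD2 gave 3 falls, and 5 with the block.

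Of the 17 other fork and checkpoint genes measured, 12 fell with RB plus SMYD2 against control and 0 rose, with a median of -0.70, and with RB against control 8 fell, and 11 with the replicate block, with a median of -0.47. MCM10, which joins helicase and polymerase, was -1.22 ± 0.26 (adjusted p = 0.00666, limma), WDHD1, a scaffold of the fork, -1.06 ± 0.09 (adjusted p = 2.51e-06, limma), LIG1, which seals lagging strand fragments, -0.88 ± 0.12 (adjusted p = 0.000117, limma) and CHEK1, the kinase that claspin presents to ATR, -0.85 ± 0.18 (adjusted p = 0.00624, limma). ATR itself was 0.10 ± 0.08 and did not pass. Against SMYD2, RB plus SMYD2 gave 11 falls among these 17, and 11 with the block. With RB against SMYD2, 7 of these 17 fell, and with the block 8 fell and 1 rose. The gene that rose was ATR (0.25, adjusted p = 0.0294 with the block and 0.0933 without it, limma). In all 3 lists the counts for RB plus SMYD2 against control stand beside 4.2% of all genes that fell, and 6.78% with the block. Without the block, 1.71% of all genes fell with RB against control and 4.25% with RB plus SMYD2 against SMYD2. With RB against SMYD2 it was 1.86%. The block counts stand beside 3.47% of all genes for RB against control and 7.6% for RB plus SMYD2 against SMYD2. For RB against SMYD2, 4.42% of all genes fell with the block and 4.84% rose. Whether the 10 genes differ from these lists was not tested.

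**Figure D5:**
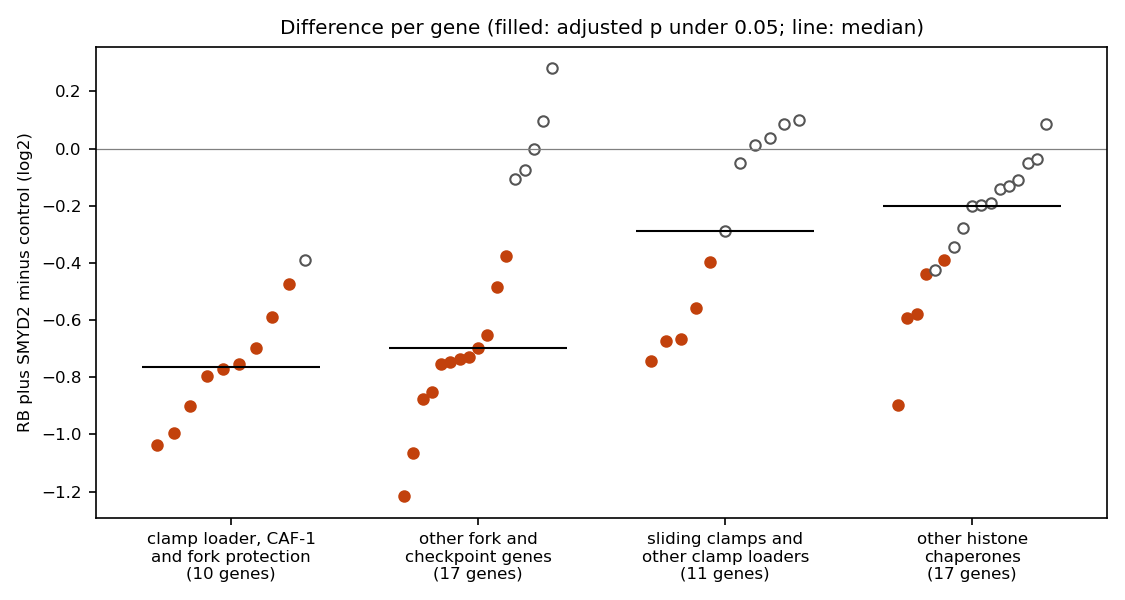
Difference of RB plus SMYD2 minus control (log2, vertical axis) for the 10 genes and for 3 lists of related genes (horizontal axis), 1 point per gene in order of size, with the median as a line; filled points have an adjusted p under 0.05 over all genes. The medians are -0.76, -0.70, -0.29 and -0.20 from left to right, and no filled point lies above 0.

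The genes whose signal followed the mean of the 10 most closely over the 16 arrays were NDC80, TYMS, DLGAP5, FAM83D and PRC1, with Pearson correlations of 0.995, 0.993, 0.992, 0.991 and 0.989. NDC80, DLGAP5, FAM83D and PRC1 encode proteins of the mitotic spindle or kinetochore and TYMS makes thymidylate. NDC80 was -1.17 ± 0.12 with RB plus SMYD2 against control (adjusted p = 9.63e-06, limma). These correlations are over arrays that fall into levels with and without RB, and over deviations from the group means they were 0.970, 0.976, 0.969, 0.946 and 0.915. Both kinds include the SMYD2 array of replicate 1 and were not computed without it. The mean of the 10 was 9.26 on that array, against 9.59 to 9.74 on the other SMYD2 arrays. By gene, the closest were SPDL1 to RFC1 (0.969), PBK to RFC2 (0.976), TRIP13 to RFC3 (0.988), CENPU to RFC4 (0.982), CEP55 to RFC5 and CLSPN (0.985 and 0.978), KIFC1 to CHAF1A (0.970), NSD2 to CHAF1B (0.973), TACC3 to TIMELESS (0.986) and PSMA5 to TIPIN (0.967). Over deviations from the group means the correlation was 0.578 for TACC3 with TIMELESS, 0.655 for NSD2 with CHAF1B and 0.981 for TRIP13 with RFC3. These too include SMYD2 replicate 1.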

How the data were processed

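Transcript levels of SAOS cells were measured on 16 arrays, 1 sample each, in 4 groups of 4 set by the transfection label. The authors deposited 1 table of log2 signals for 54675 probe sets, made with RMA per the submitters' processing notes, which give no version. RMA corrects background, equalises the distributions of arrays and summarises the probes of a set, and it leaves no detection call, so a dim signal cannot be told from background and precision depends on how many arrays there are. Whether the arrays were normalized as 1 batch is unstated.

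Symbols came from the platform annotation (41097 probe sets with 1 symbol, 1801 with several, 11777 with none). A gene was read from its brightest probe set by the mean of the 16 arrays, giving 19775 genes. Groups were compared with limma 3.58.1 in R 4.3.3 (1 mean per group over 16 arrays, eBayes with trend, 2-sided, Benjamini-Hochberg over all genes, threshold 0.05, 7 comparisons including the interaction). Group values carry SD and differences SE, with n = 4 per group. The fit was tested on simulated data first.

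Same-numbered arrays had correlated deviations from their group means in 5 of the 6 group pairs (lowest 0.145), and a fit with that number as a block is given where it changes a call of the 10 genes or a count in a list of related genes. RB with SMYD2 had -0.077 at replicate 5, against 0.194 with another number. RB plus SMYD2 with RB had 0.145 there, against 0.375 with another number. At replicate 4 RB with control had 0.207 against 0.315, and RB plus SMYD2 with control 0.217 against 0.260. SMYD2 with control had 0.508 against 0.522 there. In all other cases, including every one at replicates 1 and 3, the same number gave the higher correlation. Matching by number was thus not uniform at replicates 4 and 5. The 10 genes and the lists of related genes were chosen with earlier results of these data known. Named besides them are the 4 largest differences of each list with RB plus SMYD2 against control, the 5 genes closest to the mean of the 10 and the closest to each, while RBBP4, ATR, RAD17 and the markers named were added after their values were seen. Promoters came from RefSeq's GRCh38.p14 table. Alternatives covered scaling, probe set choice, dim genes, trend, arrays in the fit, array weights, the block, and each array left out. A block without the SMYD2 array of replicate 1 and the ACTB 3' to 5' ratio as a covariate were chosen after seeing the data. Figures used matplotlib 3.10.9.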

Additional observations from a re-analysis of the deposited data

Results flagged for a closer look

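Dixon's ratio (the gap of the highest or lowest array to its neighbour over the range of its group of 4) was computed for the 10 genes and their mean in 4 groups, 44 cases in all, and passed the 95% critical value for 4 samples in 2 of them, where chance alone gives about 1 in 20. CLSPN was low on control replicate 1, at 7.99 against 8.42 ± 0.02 on the other 3 control arrays, with a ratio of 0.899. RFC4 was low on RB replicate 4, at 9.59 against 9.80 ± 0.02 on the other 3 RB arrays, with a ratio of 0.836. The SMYD2 array of replicate 1 did not pass for any of the 10 genes.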

How the results depend on the processing

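In 1880 values of the 10 genes under 27 alternatives, 1744 kept direction and side of the threshold, 64 passed only under the alternative, 39 passed only without it, and 33 turned sign, 0 of them called. Counts of the 10 that fell moved as follows. For RB against control, 3, it was 7 with only those groups in the fit, 10 with array weights, 8 with the replicate block, 9 with the block and SMYD2 replicate 1 left out, and 8 with the ACTB covariate. For RB plus SMYD2 against SMYD2, 8, it was 5 with only those groups, without RFC3, RFC5 and CLSPN, 6 with the mean of probe sets, 7 with median centring, quantile normalization or all probe sets, each without RFC3 (adjusted p 0.0566 to 0.0751, limma), and 10 with weights, with the covariate or with the block without that array. For RB against SMYD2, 4, it was 9 with weights, 8 with the block without that array, 7 with the covariate, and 5 with the replicate block alone. With only those groups in the fit it was 3, as TIPIN lost its call (adjusted p = 0.110, limma). Leaving out 1 array gave 3 to 7 for RB against control, 6 to 10 for RB plus SMYD2 against SMYD2, 7 to 10 for RB plus SMYD2 against control and 3 to 8 for RB against SMYD2, each highest without SMYD2 replicate 1. The block changed no call of the 10 beyond those named in the results.

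Over all genes, calls with weights, the replicate block, the block without that array and the covariate numbered 2296, 1399, 2141 and 1427 for RB against control (585 in the reported fit), 3141, 2812, 3010 and 2472 for RB plus SMYD2 against SMYD2 (1422), 3687, 2562, 3478 and 2646 for RB plus SMYD2 against control (1424), and 1790, 1831, 1921 and 1374 for RB against SMYD2 (642). With only the compared groups they were 748 for RB plus SMYD2 against SMYD2 and 193 for RB against SMYD2. RB plus SMYD2 against RB gave 1 with all probe sets tested together and 1 with the block without that array, and the interaction 1 with all probe sets. Leaving out 1 array gave 286 to 984, 859 to 1753, 899 to 2032 and 304 to 888 for those 4 comparisons, and 0 elsewhere. The cause was not tested.

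Sign turned in SMYD2 against control for CHAF1A with the mean of probe sets (0.039), for RFC3, RFC4, RFC5 and CHAF1B with weights (0.015, 0.086, 0.032 and 0.0095), and for RFC2, RFC3, RFC4, RFC5 and CHAF1A with the block without that array (0.070, 0.013, 0.10, 0.0069 and 0.012). In the interaction it turned with the mean of probe sets for RFC1, RFC3 and RFC5 (0.0084, 0.039 and 0.049). With 1 array left out, SMYD2 against control ran from -0.24 to 0.0036 for RFC1, -0.26 to 0.045 for RFC2, -0.39 to 0.093 for RFC3, -0.17 to 0.071 for RFC4, -0.26 to 0.058 for RFC5, -0.080 to 0.017 for CHAF1A and -0.076 to 0.015 for CHAF1B. RB against SMYD2 ran from -0.23 to 0.013 for RFC1, and the interaction from -0.17 to 0.074 for RFC1, -0.25 to 0.058 for RFC2 and -0.46 to 0.025 for RFC3. With the mean of probe sets, RFC3 and RFC5 lost their calls of RB plus SMYD2 against control (-0.70 and -0.54) and against SMYD2 (-0.39 and -0.36).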
